A study of Mus musculus with 6 samples.

Results

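The genes of antioxidant defence and thiol redox control were followed across 6 RNA sequencing libraries of mouse pancreatic islets. They were chosen by symbol: the numbered glutathione transferases of the alpha, kappa, mu, omega, pi, theta and zeta classes, the glutathione peroxidases, the peroxiredoxins, the superoxide dismutases and every gene whose symbol begins with Txn, together with Hmox1, Nqo1, Gclc, Gclm, Gsr, Srxn1, Nfe2l2 and Keap1. This gave 67 of the 34745 genes in the table, 59 by the symbol pattern and 8 by name. All islets came from C57BL/6 mice aged 8 weeks. KO+DNMT3A holds 2 libraries of βRapKO islets that received Dnmt3a, a DNA methyltransferase gene, by lentivirus. KO holds 2 libraries of βRapKO islets, a model in which beta cells lose Raptor, the mTORC1 subunit encoded by Rptor. WT holds 2 libraries of wild-type islets. The question posed was whether recovered Dnmt3a lets βRapKO beta cells set up a proper transcriptome. The driver of the deletion and any pooling of animals are not given in the sources used here, and the deposited columns of the KO and WT libraries carry the word GFP without explanation. Whether replicates are different mice is not stated either, and the p-values speak only of the spread between libraries, which may be technical.

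Cells turn superoxide into hydrogen peroxide with superoxide dismutases and remove peroxides with peroxiredoxins, glutathione peroxidases and catalase. Most peroxiredoxins are recharged by thioredoxin and thioredoxin reductase, while glutathione peroxidases draw on glutathione, which is made by glutamate-cysteine ligase and kept reduced by glutathione reductase. NRF2, the product of Nfe2l2, is held back by KEAP1 and switches on many of these genes under oxidative stress; beta cells are known for low catalase, and for inducing Txnip, an inhibitor of thioredoxin, in response to glucose.

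The libraries differed within groups. Ins1 and Ins2 took 16.5% and 23.6% of the summed FPKM (fragments scaled to transcript length and library depth) with KO+DNMT3A, 30.5% and 0.109% with KO, and 0.17% and 23.9% with WT, so KO replicate 2 and WT replicate 1 were poor in insulin transcripts. Inferred depth ran from 244720 fragments in WT replicate 1 to 1920099 in KO+DNMT3A replicate 1, and 3 fragments on 1 kb equal 12.3 and 1.56 FPKM there. Rptor, the deleted gene, measured 0.714 and 1.93 FPKM in the KO+DNMT3A libraries, 0.378 and 1.51 in the KO libraries, and 0.8004 and 1.06 in the WT libraries. Dnmt3a measured 3.62 and 3.797 FPKM in the KO+DNMT3A libraries, 3.19 and 2.5 in the KO libraries, and 2.94 and 4.43 in the WT libraries. Both overlapped between every pair of groups except that Dnmt3a lay higher in KO+DNMT3A than in KO, and the groups are called by their labels.

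The start regions of 3 of the redox genes carry letters for which redox genes are known. They are given from 250 bases before to 50 bases after the RefSeq start on GRCm38.p6, plus strand. Prdx1 and Txnrd1, a peroxiredoxin and the cytosolic thioredoxin reductase, hold the core of the antioxidant response element bound by NRF2 (TGACNNNGC). Txnip holds a carbohydrate response element, searched as 2 copies of CACGAG with 5 bases between them. Capitals mark these matches.
Prdx1, chr4:116685349-116685648: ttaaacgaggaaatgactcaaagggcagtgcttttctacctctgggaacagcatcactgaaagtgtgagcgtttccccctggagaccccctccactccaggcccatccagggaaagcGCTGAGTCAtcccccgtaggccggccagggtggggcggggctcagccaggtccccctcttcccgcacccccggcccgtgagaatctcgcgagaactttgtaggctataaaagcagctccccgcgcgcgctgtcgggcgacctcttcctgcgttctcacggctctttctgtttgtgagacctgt
Txnrd1, chr10:82858956-82859255: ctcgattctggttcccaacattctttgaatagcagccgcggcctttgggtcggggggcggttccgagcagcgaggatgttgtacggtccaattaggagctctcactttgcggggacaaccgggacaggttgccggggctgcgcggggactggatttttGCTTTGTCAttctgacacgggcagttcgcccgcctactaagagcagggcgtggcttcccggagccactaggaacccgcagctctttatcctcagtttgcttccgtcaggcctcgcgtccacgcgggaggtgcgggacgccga
Txnip, chr3:96557707-96558006: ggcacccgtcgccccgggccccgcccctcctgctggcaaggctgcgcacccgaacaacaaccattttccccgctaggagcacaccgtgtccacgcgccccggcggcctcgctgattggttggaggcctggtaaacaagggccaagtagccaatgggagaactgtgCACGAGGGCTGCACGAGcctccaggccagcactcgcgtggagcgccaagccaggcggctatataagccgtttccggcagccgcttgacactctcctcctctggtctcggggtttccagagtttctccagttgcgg
The Prdx1 match begins 133 bases before the start, in reverse orientation, and overlaps an AP-1 site (TGANTCA). The Txnrd1 match begins 92 bases before the start of 1 of its 3 windows, also in reverse orientation, and the Txnip match begins 85 bases before the start. RefSeq windows were matched for 56 of the 67 genes, 73 windows in all. On either strand the antioxidant response core lay in 12 of the 73 (16.4%) and in 12.4% of all 32851 windows of 300 bases. Its holders were Gclm, Gsta3, Gstm5, Gstm7, Nfe2l2, Prdx1, Sod1, Srxn1, Txndc11, Txndc2, Txndc5 and Txnrd1. Hmox1, Gclc and Gsr were among the genes without a window and were not searched. The Nqo1 window was searched and held no match to the core. The E-box CACGTG was in 4 windows (5.48%, against 7.15% of all windows), and the AP-1 site in 5 (6.85%, against 7.81%). The carbohydrate response letters were written down after the Txnip window had been read and matched 1 of the 32851 windows, that of Txnip. A match describes letters, not binding.

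Of the 67 genes, 51 reached 1 FPKM in at least 2 libraries and were tested. Another 8 stayed below that level, namely Gsta2, Gsta4, Gstm3, Gstm7, Gstt3, Gstt4, Txndc16 and Txnrd3. The remaining 8 were listed at 0 throughout, namely Gpx5, Gpx6, Gsta1, Gstm6, Gstp2, Gstp3, Txndc2 and Txndc8. Sod1, cytosolic superoxide dismutase, had the highest FPKM of the family in 5 of the 6 libraries, and Gpx3 in WT replicate 1.

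**Figure D1:**
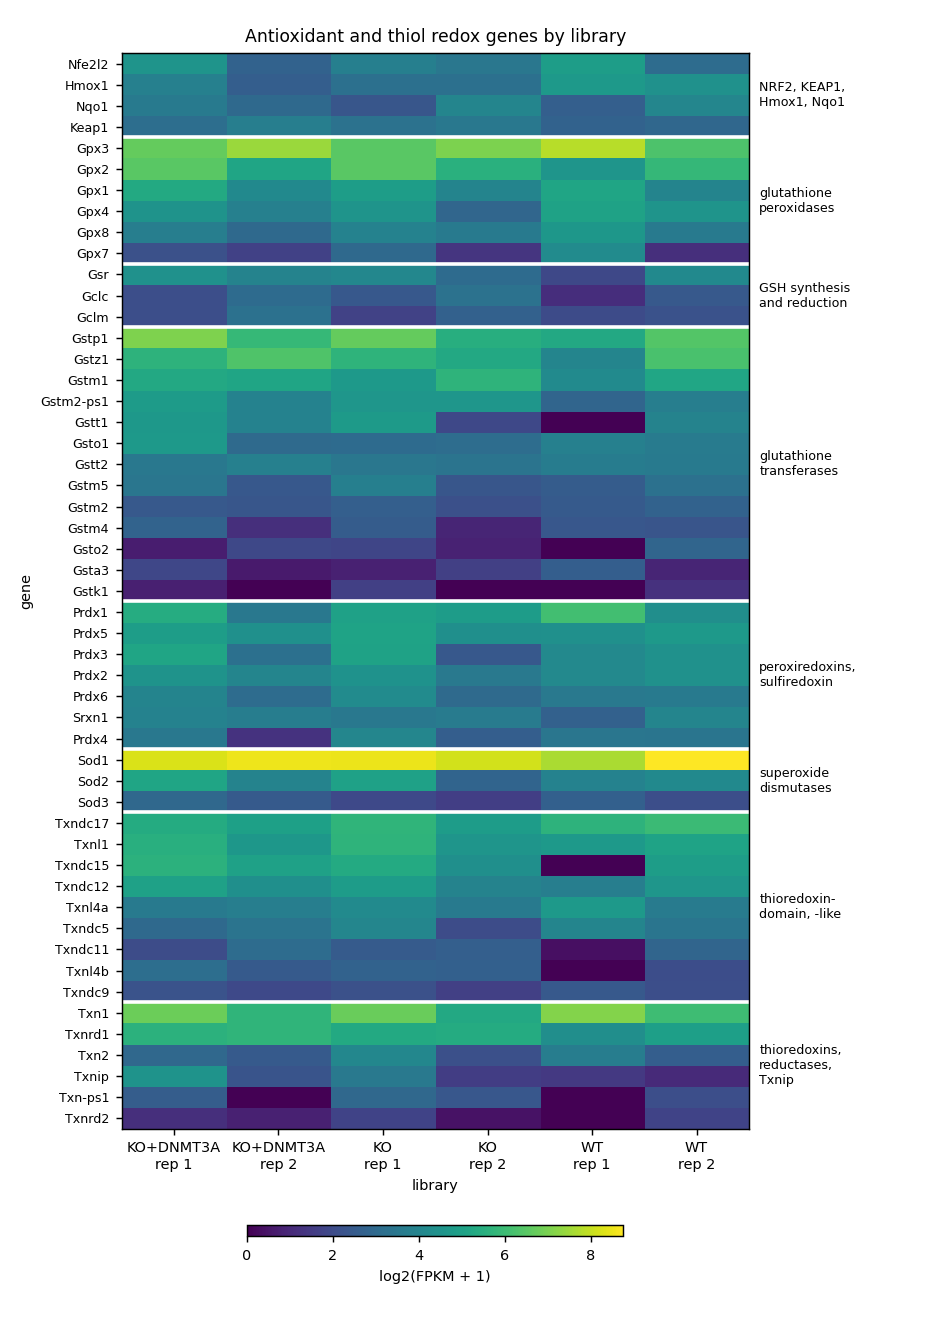
Levels of the 51 tested redox genes (rows, grouped by role) in the 6 libraries (columns), as log2(FPKM + 1) by colour. Sod1 and Gpx3 are bright in every library, while Txndc15, Gstt1 and Txnl4b are at 0 in WT replicate 1.

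No redox gene passed the test in any comparison. By limma over all 13233 tested genes, 0 of 51 passed in KO against WT, in KO+DNMT3A against KO and in KO+DNMT3A against WT, with a background of 0.0% in each, and the smallest adjusted p was 1, 1 and 0.997. At an unadjusted limma p under 0.05, KO against WT held 0 redox genes (background 1.1% higher and 0.71% lower) and KO+DNMT3A against KO held 0 (background 0.778% higher and 0.333% lower). KO+DNMT3A against WT held 2, Txnip and Txnl4b, both higher (background 2.21% higher and 0.65% lower). Without WT replicate 2, the genes of all kinds below that unadjusted limma p numbered 2263 in KO+DNMT3A against WT, beside 379 with it, and 1713 in KO against WT, beside 240. The WT group is then WT replicate 1 alone, the shallowest library, with no spread within WT to measure. In that library 26.6% of all tested genes were listed at 0. Each group enters 2 of the 3 comparisons, which therefore share libraries.

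Genes whose groups did not overlap were about as frequent as among all genes, or rarer. In KO against WT, 6 of 51 lay wholly higher (11.8%, background 9.36%) and 5 wholly lower (9.8%, background 10.5%). In KO+DNMT3A against KO, 4 lay wholly higher (7.84%, background 17.2%) and 0 wholly lower (background 5.43%). In KO+DNMT3A against WT, 6 lay wholly higher (11.8%, background 19.2%) and 5 wholly lower (9.8%, background 7.87%).

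The median log2 fold change of the 51 genes, on the FPKM plus 1 scale, was -0.07 in KO against WT, 0.07 in KO+DNMT3A against KO and 0.08 in KO+DNMT3A against WT, beside 0.03, 0.19 and 0.23 over all tested genes. Differences above and below 0 numbered 25 and 26 in KO against WT (background 52.4% and 47.3%), 31 and 20 in KO+DNMT3A against KO (background 68.2% and 31.8%), and 28 and 23 in KO+DNMT3A against WT (background 64.8% and 35.2%). Median scaling, which brings the medians of all genes to 0.03, -0.01 and 0.03, gave 25 and 26, 21 and 30, and 20 and 31; quantile normalization gave 24 and 27, 21 and 30, and 22 and 29. Single libraries set the sign of the medians: in KO against WT it was 0.40 without KO replicate 2, -0.38 without KO replicate 1 and 0.23 without WT replicate 2. The median of KO+DNMT3A against KO was -0.24 without KO replicate 2 and -0.18 without KO+DNMT3A replicate 1. That of KO+DNMT3A against WT was -0.28 without KO+DNMT3A replicate 1.

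**Figure D2:**
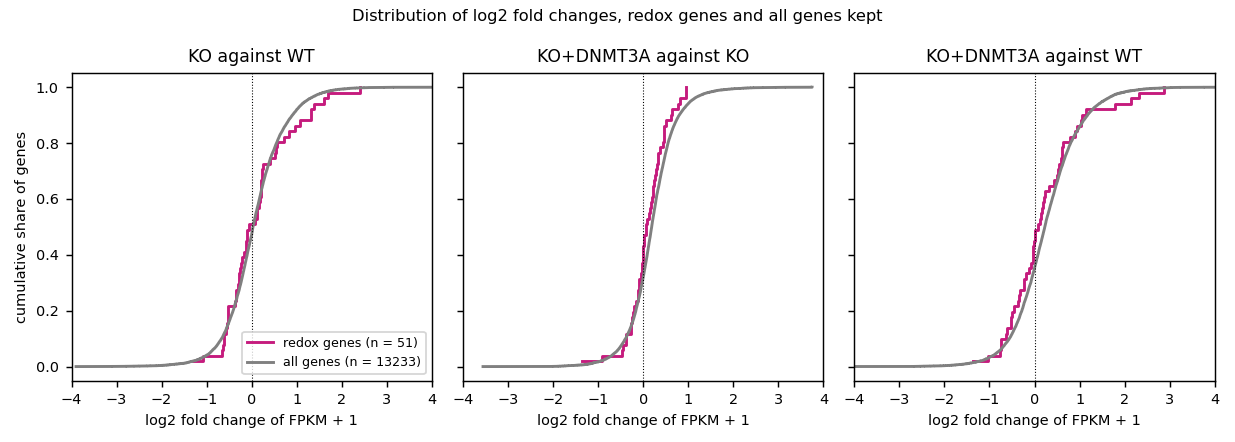
Cumulative share of genes (y axis) by log2 fold change of FPKM + 1 (x axis) in each comparison, for the 51 redox genes and all 13233 tested genes. The redox medians are -0.07, 0.07 and 0.08, beside 0.03, 0.19 and 0.23 for all genes.

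Within the thioredoxin system, Txnrd1 (GRCm38 chr10:82833951-82897712, plus strand) was the 1 tested redox gene with all 3 groups apart. Txnrd1 measured 48.3 and 52.4 FPKM in the KO+DNMT3A libraries, 39.0 and 40.9 in the KO libraries, and 19.1 and 29.8 in the WT libraries. Every KO+DNMT3A value was above every KO value and every KO value above every WT value, an order found in 1.96% of the 51 genes and in 151 of all 13233 tested genes (1.14%). The log2 fold change was 0.33 (SE 0.55) in KO+DNMT3A against KO, 0.72 (SE 0.55) in KO against WT and 1.04 (SE 0.55) in KO+DNMT3A against WT, and none passed (limma, adjusted p = 1, 1 and 0.997). WT replicate 1 rests on at most 17.0 fragments, and without it KO against WT was 0.41.

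Txnip (chr3:96557957-96561883, plus strand) was lowest in the WT libraries. Txnip measured 21.8 and 3.88 FPKM in the KO+DNMT3A libraries, 10.7 and 2.04 in the KO libraries, and 1.77 and 1.04 in the WT libraries. Replicate 1 was the higher library in each group, KO+DNMT3A overlapped with KO, and both lay above WT. The WT values rest on at most 1.2 and 2.9 fragments. Inferred fragments relative to depth, pooled by group, were 13.0 times those of WT in KO+DNMT3A (95% counting interval 4.97 to 48.5) and 6.49 times in KO (2.37 to 24.8), which leaves out the spread between libraries. The log2 fold change was 2.15 (SE 0.90) in KO+DNMT3A against WT and 1.32 (SE 0.90) in KO against WT (limma, adjusted p = 0.997 and 1). Without KO+DNMT3A replicate 1 the value against WT was 1.04, and without KO replicate 1 that of KO was 0.35. Between KO+DNMT3A and KO it was 0.83 (SE 0.90), with -0.28 without KO+DNMT3A replicate 1 and -0.14 without KO replicate 2. Gm15441 overlaps Txnip on the opposite strand, and since the protocol names no strand-marking step their reads cannot be told apart. In all, 14 of the 67 genes share exon sequence with another gene, among them Keap1, Gclm, Gstz1, Txndc5, Prdx2 and Prdx5.

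Txn1 measured 110.5 and 52.8 FPKM in the KO+DNMT3A libraries, 107 and 37.8 in the KO libraries, and 139.9 and 65.5 in the WT libraries. This gene encodes cytosolic thioredoxin, and its groups overlapped, with replicate 1 the higher library each time. The mitochondrial pair was weaker, with 3.43 to 15.7 FPKM for Txn2, mitochondrial thioredoxin, and 0 to 2.42 FPKM for Txnrd2, its reductase. Txn-ps1 measured 5.06 and 0 FPKM in the KO+DNMT3A libraries, 6.81 and 4.15 in the KO libraries, and 0 and 3.33 in the WT libraries. This processed pseudogene rests on 3 or fewer fragments in each library.

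Of the thioredoxin-domain and thioredoxin-like genes 9 were tested, led by Txndc17, which encodes a cytosolic disulfide reductase. Txndc17 measured 41.4 and 31.0 FPKM in the KO+DNMT3A libraries, 52.1 and 27.9 in the KO libraries, and 49.8 and 61.9 in the WT libraries. KO+DNMT3A lay below WT, by a log2 fold change of -0.62 (SE 0.59) with a limma adjusted p of 0.997, and overlapped with KO. Txndc15 measured 48.6 and 31.2 FPKM in the KO+DNMT3A libraries, 39.6 and 19.4 in the KO libraries, and 0 and 28.4 in the WT libraries. Its log2 fold change in KO+DNMT3A against WT was 2.88 (SE 1.38), but 0.45 without WT replicate 1, where it is listed at 0.

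Txnl4b measured 7.91 and 4.53 FPKM in the KO+DNMT3A libraries, 5.74 and 5.49 in the KO libraries, and 0 and 3.20 in the WT libraries. It is likewise at 0 in WT replicate 1 and lay higher in both βRapKO groups. The log2 fold change was 1.78 (SE 0.74) in KO+DNMT3A against WT and 1.69 (SE 0.74) in KO against WT, and 0.74 and 0.66 without WT replicate 1. Txndc5 measured 6.90 and 9.23 FPKM in the KO+DNMT3A libraries, 15.1 and 3.09 in the KO libraries, and 14.8 and 9.54 in the WT libraries. For this disulfide isomerase gene of the endoplasmic reticulum, KO+DNMT3A lay below WT while KO spanned both.

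**Figure D3:**
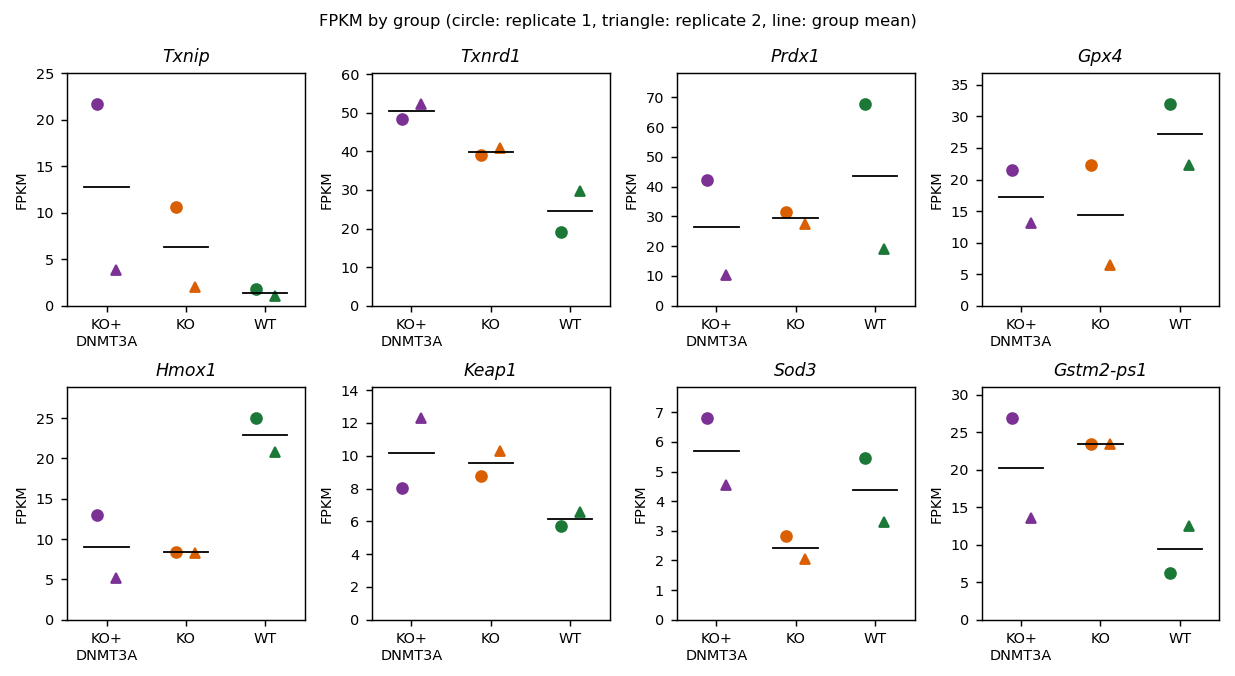
FPKM of 8 redox genes (y axis, from 0) in KO+DNMT3A, KO and WT; circles are replicate 1, triangles replicate 2 and lines the group means. Txnrd1 averages 50.3 FPKM in KO+DNMT3A, 39.9 in KO and 24.4 in WT, and Hmox1 is highest in the WT libraries.

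Most peroxiredoxins reduce peroxides with thioredoxin as electron donor, and all 6 peroxiredoxin genes were tested. Prdx1 measured 42.4 and 10.3 FPKM in the KO+DNMT3A libraries, 31.6 and 27.6 in the KO libraries, and 67.9 and 19.1 in the WT libraries. The KO libraries were close to each other and lay between the WT libraries, and all groups of Prdx1 (chr4:116685544-116700822, plus strand) overlapped. Its log2 fold change was -0.29 (SE 0.85) in KO against WT, and 0.60 without WT replicate 1. In KO+DNMT3A against KO it was -0.46 (SE 0.85), and 0.51 without KO+DNMT3A replicate 2. In KO+DNMT3A against WT it was -0.75 (SE 0.85), and 0.22 without KO+DNMT3A replicate 2 or 0.14 without WT replicate 1.

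Prdx3 measured 34.9 and 8.48 FPKM in the KO+DNMT3A libraries, 32.3 and 4.33 in the KO libraries, and 16.6 and 20.8 in the WT libraries. Prdx4 measured 10.4 and 1.45 FPKM in the KO+DNMT3A libraries, 15.1 and 5.21 in the KO libraries, and 9.96 and 9.60 in the WT libraries. In both genes, the mitochondrial and the endoplasmic reticulum peroxiredoxin, the WT libraries were closer to each other than the libraries of either βRapKO group. The values in WT replicate 1 rest on at most 6.0 fragments for Prdx3 and 2.5 for Prdx4. The Prdx4 value in KO+DNMT3A replicate 2 rests on at most 1.7. Prdx2, Prdx5 and Prdx6 kept between 7.15 and 32.8 FPKM with all groups overlapping. Srxn1 measured 13.6 and 12.1 FPKM in the KO+DNMT3A libraries, 10.4 and 11.6 in the KO libraries, and 5.62 and 15.0 in the WT libraries. Srxn1, sulfiredoxin, repairs over-oxidized peroxiredoxins, and lay higher in KO+DNMT3A than in KO by a log2 fold change of 0.20 (SE 0.60), which was 0.12 without KO+DNMT3A replicate 1, 0.13 without KO replicate 1 and -0.03 after quantile normalization.

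Among the 6 tested glutathione peroxidases, Gpx3, the secreted form, averaged the highest FPKM. Gpx3 measured 103 and 172 FPKM in the KO+DNMT3A libraries, 89.9 and 131 in the KO libraries, and 224 and 79.2 in the WT libraries. Gpx2 measured 90.8 and 34.4 FPKM in the KO+DNMT3A libraries, 90.0 and 46.8 in the KO libraries, and 23.0 and 56.8 in the WT libraries. Gpx2 is the epithelial form, and for both genes all groups overlapped, as they did for the ubiquitous Gpx1 at 14.4 to 39.4 FPKM.

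Gpx4 (chr10:80047166-80056439, plus strand) encodes the peroxidase that clears lipid peroxides and guards against ferroptosis. Gpx4 measured 21.5 and 13.1 FPKM in the KO+DNMT3A libraries, 22.2 and 6.39 in the KO libraries, and 32.0 and 22.3 in the WT libraries. Both βRapKO groups lay below WT, KO replicate 1 narrowly so. The Gpx4 value rests on at most 5.0 fragments in KO replicate 2 and 7.8 in WT replicate 1. The log2 fold change was -1.08 (SE 0.70) in KO against WT and -0.64 (SE 0.70) in KO+DNMT3A against WT (limma, adjusted p = 1 and 0.997). In KO against WT it was -0.26 without KO replicate 2 and -1.91 without KO replicate 1, and without both insulin-poor libraries it was -0.0051. That of KO+DNMT3A against WT was -0.30 without KO+DNMT3A replicate 2, -0.98 without KO+DNMT3A replicate 1 and -0.39 without WT replicate 1. In KO+DNMT3A against KO it was 0.44 (SE 0.70), and -0.38 without KO replicate 2. Gpx7 and Gpx8, the members of the endoplasmic reticulum, reached 17.7 and 24.1 FPKM in WT replicate 1, against 1.27 to 6.93 FPKM and 7.05 to 13.8 FPKM in the other libraries. Their values in WT replicate 1 rest on at most 5.6 and 6.2 fragments.

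Glutathione supply was read from Gclc and Gclm, the catalytic and modifier subunits of glutamate-cysteine ligase, and from Gsr, glutathione reductase. Gclc measured 3.35 and 7.32 FPKM in the KO+DNMT3A libraries, 4.30 and 8.98 in the KO libraries, and 1.19 and 4.5 in the WT libraries. Gclm measured 3.27 and 8.65 FPKM in the KO+DNMT3A libraries, 2.29 and 5.57 in the KO libraries, and 2.96 and 3.60 in the WT libraries. Replicate 2 was the higher library of each group for both subunits, and the groups overlapped. Gsr measured 20.47 and 14.1 FPKM in the KO+DNMT3A libraries, 15.6 and 7.32 in the KO libraries, and 2.75 and 16.9 in the WT libraries. The low Gsr value in WT replicate 1 rests on at most 1.8 fragments, and the Gclc value there on at most 1.0.

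Sod1 measured 309.5 and 368 FPKM in the KO+DNMT3A libraries, 364 and 284 in the KO libraries, and 202 and 434 in the WT libraries. The WT libraries held both its lowest and its highest value, and the means were 339 ± 41.6 in KO+DNMT3A, 324 ± 56.6 in KO and 318 ± 164 in WT, in FPKM (SD, n = 2 each). Sod2 measured 34.6 and 14.3 FPKM in the KO+DNMT3A libraries, 31.0 and 6.03 in the KO libraries, and 13.9 and 16.9 in the WT libraries. Sod2, the mitochondrial enzyme, differed more between the libraries of each βRapKO group than between the WT libraries. Sod3 measured 6.83 and 4.55 FPKM in the KO+DNMT3A libraries, 2.81 and 2.06 in the KO libraries, and 5.47 and 3.30 in the WT libraries. Sod3, the secreted enzyme, lay lower in KO than in the other groups, with a log2 fold change of 0.95 (SE 0.53) when KO+DNMT3A was set against it and -0.63 (SE 0.53) when it was set against WT (limma, adjusted p = 1 in both), on 6.0 fragments in KO replicate 2 and 5.0 in WT replicate 1. The Sod3 change of KO relative to WT was -0.33 without WT replicate 1 and -0.17 without both insulin-poor libraries.

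Hmox1 (chr8:75093621-75100589, plus strand) encodes the stress-induced enzyme that breaks down heme. Hmox1 measured 13.0 and 5.17 FPKM in the KO+DNMT3A libraries, 8.36 and 8.33 in the KO libraries, and 25.1 and 20.8 in the WT libraries. Every βRapKO library lay below both WT libraries, and the KO libraries were nearly equal. The log2 fold change was -1.35 (SE 0.59) in KO against WT and -1.36 (SE 0.59) in KO+DNMT3A against WT (limma, adjusted p = 1 and 0.997). Without KO+DNMT3A replicate 2 the value against WT was -0.77. Macrophages express Hmox1, and their 10 marker genes, none at 0 in any library, summed to 238 and 160 FPKM with KO+DNMT3A, 517 and 327 with KO, and 541 and 510 with WT. Their part in the Hmox1 values was not tested, and in whole islets fewer cells of a type and less RNA per cell cannot be told apart.

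Keap1 measured 8.04 and 12.3 FPKM in the KO+DNMT3A libraries, 8.77 and 10.3 in the KO libraries, and 5.73 and 6.55 in the WT libraries. Keap1 encodes the protein that marks NRF2 for degradation. The Keap1 value in WT replicate 1 rests on at most 5.1 fragments. Both βRapKO groups lay above WT, by log2 fold changes of 0.62 (SE 0.52) for KO+DNMT3A and 0.56 (SE 0.52) for KO, and neither passed (limma, adjusted p = 0.997 and 1). For KO+DNMT3A the value was 0.34 without KO+DNMT3A replicate 2; for KO it was 0.37 without both insulin-poor libraries. Nfe2l2 measured 22.2 and 5.70 FPKM in the KO+DNMT3A libraries, 12.7 and 10.1 in the KO libraries, and 28.1 and 7.59 in the WT libraries. Nqo1 measured 11.1 and 6.91 FPKM in the KO+DNMT3A libraries, 4.06 and 14.8 in the KO libraries, and 5.26 and 15.2 in the WT libraries. For Nfe2l2 and for the quinone reductase gene Nqo1, a classical NRF2 target, all groups overlapped. Of a list of 15 NRF2 partners and further classical targets, Txnrd1 lay wholly higher in KO than in WT (6.67%, background 9.36%) and Blvrb and Cbr3 wholly lower (13.3%, background 10.5%). Set against WT, KO+DNMT3A had 3 of the 15 wholly higher, Txnrd1, Cbr1 and Maff (background 19.2%), and 3 wholly lower, Ftl1, Fth1 and Blvrb (background 7.87%). Set against KO it had 3 wholly higher, Txnrd1, Blvrb and Cbr3 (background 17.2%), and 0 wholly lower (background 5.43%). Blvrb measured 3.95 and 3.88 FPKM in the KO+DNMT3A libraries, 3.54 and 2.77 in the KO libraries, and 17.7 and 5.93 in the WT libraries. Blvrb, a biliverdin reductase gene that acts downstream of heme breakdown, had a log2 fold change of -1.46 (SE 0.61) in KO against WT. Its unadjusted limma p was 0.045, and it did not pass after adjustment. Of all tested genes, 0.71% lay lower at an unadjusted limma p under 0.05. The higher WT value of Blvrb came from WT replicate 1, the shallowest library.

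Glutathione transferases join glutathione to reactive compounds, and 13 of 23 were tested. Gstp1 measured 133 and 57.9 FPKM in the KO+DNMT3A libraries, 103 and 44.0 in the KO libraries, and 37.8 and 85.5 in the WT libraries. Gstz1 measured 49.4 and 80.6 FPKM in the KO+DNMT3A libraries, 50.96 and 38.5 in the KO libraries, and 14.7 and 74.6 in the WT libraries. Gstp1 is of the pi class and Gstz1 also acts in tyrosine breakdown; for these and for Gstm1 of the mu class, at 17.1 to 50.9 FPKM, all groups overlapped.

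Gstm2-ps1 measured 26.9 and 13.6 FPKM in the KO+DNMT3A libraries, 23.5 and 23.4 in the KO libraries, and 6.22 and 12.5 in the WT libraries. This processed pseudogene on chromosome 5 lay above WT in both βRapKO groups, by log2 fold changes of 1.03 (SE 0.61) for KO+DNMT3A and 1.31 (SE 0.61) for KO. Without WT replicate 1 these were 0.58 and 0.86, and without KO+DNMT3A replicate 1 that of KO+DNMT3A was 0.57. It rests on 9 inferred fragments over the WT libraries, and the depth-adjusted ratio to WT was 1.96 in KO+DNMT3A (95% counting interval 0.944 to 4.57) and 2.09 in KO (0.98 to 4.95). Gstm2 measured 4.503 and 4.04 FPKM in the KO+DNMT3A libraries, 5.27 and 3.37 in the KO libraries, and 4.61 and 5.79 in the WT libraries. Near-identical copies can split reads, so levels within the alpha, mu and pi classes are uncertain. Gstt2 measured 10.26 and 13.1 FPKM in the KO+DNMT3A libraries, 10.24 and 9.35 in the KO libraries, and 11.9 and 11.2 in the WT libraries. The range of Gstt2, of the theta class, was narrow. KO lay lowest, though only just below KO+DNMT3A replicate 1. The log2 fold change of Gstt2 was 0.22 (SE 0.51) in KO+DNMT3A against KO and -0.22 (SE 0.51) in KO against WT. Gstt1 measured 24.3 and 13.9 FPKM in the KO+DNMT3A libraries, 26.3 and 2.75 in the KO libraries, and 0 and 14.3 in the WT libraries. Gstt1, also of the theta class, was lowest in the insulin-poor library of KO and of WT.

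**Figure D4:**
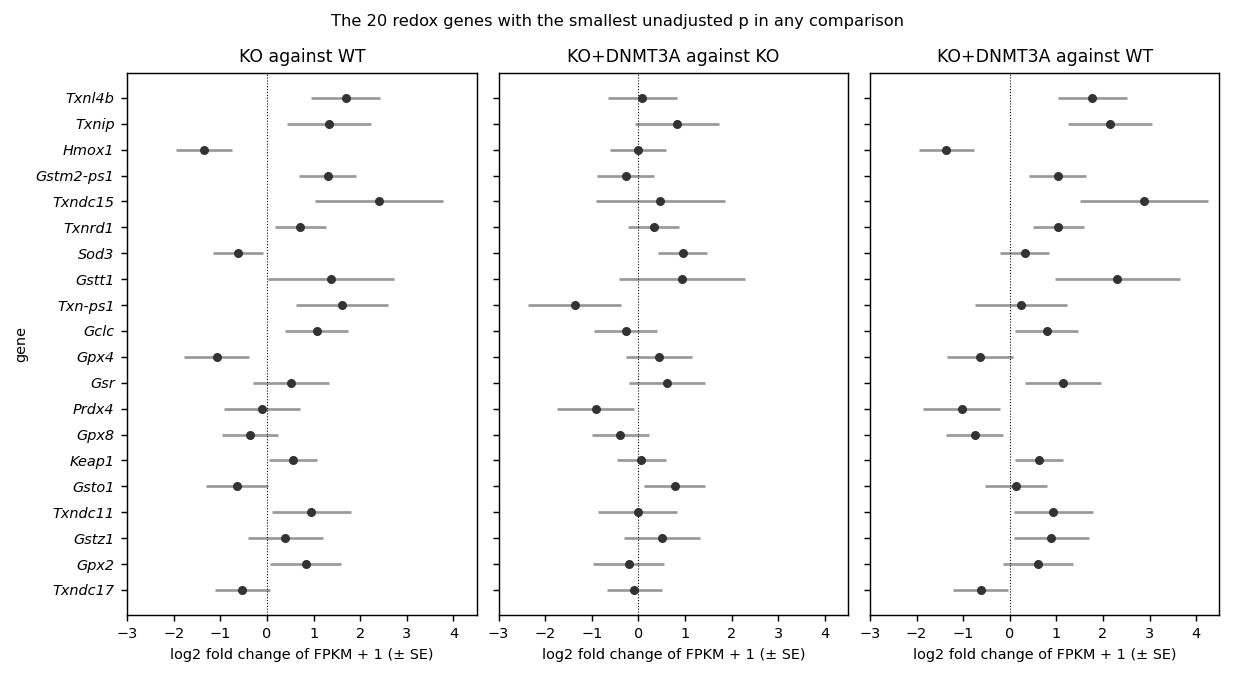
Log2 fold change of FPKM + 1 with its SE (x axis, same scale in each panel) for the 20 redox genes with the smallest unadjusted p in any comparison. Txnip is at 2.15 and Hmox1 at -1.36 in KO+DNMT3A against WT, and none of the 51 genes passed in any panel.

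Some redox genes followed single libraries. Gsta4, an alpha-class transferase that detoxifies lipid peroxidation products, was 37.5 FPKM in KO+DNMT3A replicate 1, on at most 70.4 fragments, and listed at 0 in the other 5. That library also held the highest Gsto1 value, 25.1 FPKM against 7.18 to 13.1 FPKM elsewhere, and the highest value of the duct gene Krt19, 94.6 FPKM. The 9 duct markers, with Cftr at 0 throughout, summed to 1590 and 391 FPKM with KO+DNMT3A, 530 and 323 with KO, and 2830 and 426 with WT. Gsta4 was at 0 in WT replicate 1, where Krt19 was 64.8 FPKM and the duct genes Spp1, Mmp7 and Sox9 had their highest values.

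Of the 51 genes, 11 had their highest value in WT replicate 1 (21.6%, against 17.1% of all tested genes), namely Prdx1, Gpx3, Gpx4, Gpx7, Gpx8, Nfe2l2, Hmox1, Txn1, Gsta3, Txnl4a and Txndc9. There the 10 stellate and fibroblast markers, none at 0 in any library, summed to 1520 FPKM, against 261 to 625 in the other 5. The part of duct and stroma cells in these values was not tested.

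**Figure D5:**
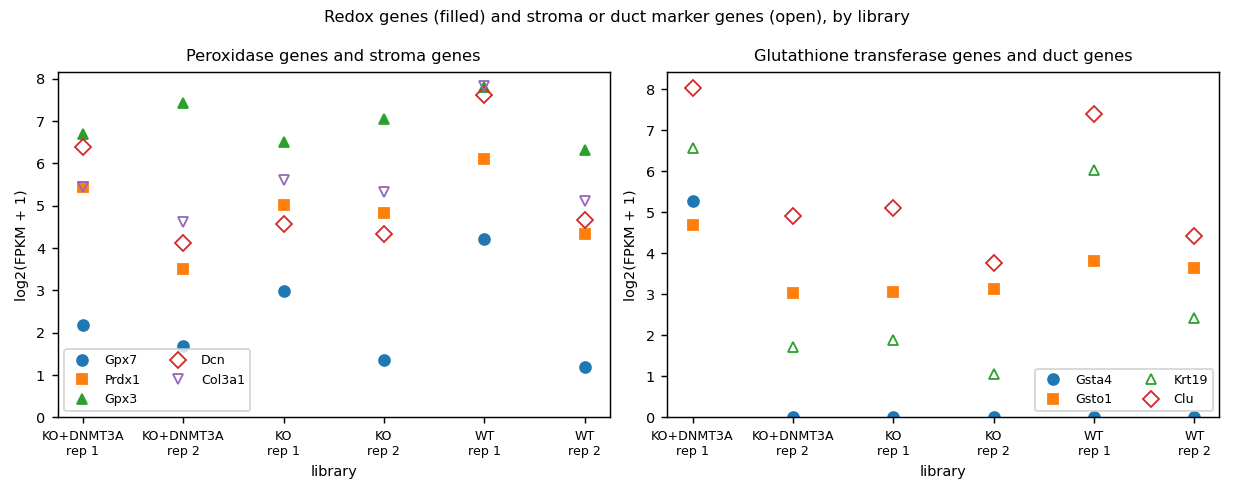
Levels by library as log2(FPKM + 1), redox genes as filled and cell type markers as open points. Gpx7 and Prdx1 are highest in WT replicate 1, as are the stroma genes Dcn and Col3a1. Gsta4 is above 0 in KO+DNMT3A replicate 1, where Krt19 and Clu are highest. The duct genes Spp1, Mmp7 and Sox9, not drawn, are highest in WT replicate 1, where Gsta4 is at 0.

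Of the 51 genes, 39 were higher in replicate 1 than in replicate 2 of KO+DNMT3A (54.1% of all tested genes), 40 in KO (58.7%) and 20 in WT (33.3%). The median log2 gap of replicate 1 over replicate 2 was 0.62, 0.70 and -0.30 for these genes, beside 0.09, 0.21 and -0.38 over all tested genes. The highest value fell in KO+DNMT3A replicate 1 for 15 genes (29.4%, against 24.2% of all tested genes). The lowest fell in WT replicate 1 for 20 (39.2%, against 44.0%) and in KO replicate 2 for 18 (35.3%, against 27.9%).

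Related pathway genes outside the family numbered 67, of which 61 were tested and 0 passed in any comparison. Wholly higher and lower were 5 and 7 in KO against WT (8.2% and 11.5%, background 9.36% and 10.5%). In KO+DNMT3A against KO they were 3 and 5 (4.92% and 8.2%, background 17.2% and 5.43%), and in KO+DNMT3A against WT 7 and 8 (11.5% and 13.1%, background 19.2% and 7.87%). Cat measured 7.64 and 1.43 FPKM in the KO+DNMT3A libraries, 6.49 and 4.09 in the KO libraries, and 7.82 and 6.88 in the WT libraries. Catalase thus lay below Sod1 in FPKM in every library. Msrb2 measured 6.27 and 11.3 FPKM in the KO+DNMT3A libraries, 11.8 and 5.40 in the KO libraries, and 2.46 and 3.09 in the WT libraries. Msrb2, a mitochondrial methionine sulfoxide reductase, lay above WT in both βRapKO groups. So did Nnt, listed under NADPH supply, with 4.70 and 2.53 FPKM in KO+DNMT3A, 7.08 and 3.28 in KO, and 0 and 1.66 in WT. The log2 fold change of Nnt in KO against WT was 1.85 (SE 0.68). Its unadjusted limma p was 0.0264, and it did not pass after adjustment. Of all tested genes, 1.1% lay higher at an unadjusted limma p under 0.05. The Nnt value draws on the 0 in WT replicate 1, the shallowest library, where 26.6% of all tested genes were listed at 0.

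Cybb measured 2.07 and 1.28 FPKM in the KO+DNMT3A libraries, 3.35 and 6.93 in the KO libraries, and 2.60 and 3.76 in the WT libraries. Cybb encodes the catalytic subunit of the phagocyte NADPH oxidase and lay lower in KO+DNMT3A than in KO. Of the 5 tested NADPH oxidase genes 3 did so, with Rac2 and Ncf1 (60.0%, background 5.43%). The median log2 fold change of the 5 was -0.67, beside 0.19 over all tested genes. For Cyba, at -0.30, and Ncf4, at 0.37, the groups overlapped, and Ncf1 reached at most 3.03 FPKM. This short list was chosen with earlier results known and was not tested as a set. The macrophage marker sums given with Hmox1 were also lower in KO+DNMT3A than in KO, and their part was not tested. Fth1 measured 1410 and 756 FPKM in the KO+DNMT3A libraries, 1073 and 1616 in the KO libraries, and 2307 and 1602 in the WT libraries. Ftl1 measured 408 and 245 FPKM in the KO+DNMT3A libraries, 344 and 472 in the KO libraries, and 464 and 691 in the WT libraries. Both ferritin genes lay below WT in KO+DNMT3A. Ero1lb measured 205 and 149.5 FPKM in the KO+DNMT3A libraries, 231 and 7.86 in the KO libraries, and 3.86 and 231 in the WT libraries. This disulfide oxidase gene of the insulin-folding pathway was low in the insulin-poor libraries.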

How the data were processed

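Islet RNA was purified with an RNeasy Micro kit and made into poly-A libraries with a TruSeq kit, per the labels' protocols. The values the authors deposited are FPKM, per the file headers. The submitters' processing notes name mm10, edgeR, StringTie 1.3.0 and HISAT2 2.0.4 without giving their roles. Symbols (34267 of 34745 genes), transcript lengths and overlaps came from GENCODE M21 on GRCm38. Depth was inferred from single-transcript genes, where 84.8% to 91.8% of values of at most 20 fragments came out whole to within 0.01. Fragments given for a gene use its longest transcript and are upper values, and intervals (exact, Clopper-Pearson) cover counting error only. The filter was 1 FPKM in 2 or more libraries. Log2(FPKM + 1) of the 13233 genes left entered 1 trended, robust limma 3.58.1 fit of all 6 libraries (R 4.3.3), two-sided, Benjamini-Hochberg adjusted at 0.05, which was tested on simulated data. No column was left out.

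The members, gene lists and marker lists were chosen with earlier results of these data known. Per-library values are given for Txnip, Prdx1, Gpx4, members averaging at least 50 FPKM, and per comparison the 3 higher and 3 lower members of smallest p among those with groups apart and a mean of at least 2 FPKM; others were named after their values were seen. The alternatives changed the pseudocount (0.1), the filter (none, or 5 FPKM), the scaling (quantile, median, or without insulin, mitochondrial and a few other dominant transcripts), the variance trend, the groups in the fit, the replicate block and the libraries included. A crossed block was added after seeing the data.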

Additional observations from a re-analysis of the deposited data

How the results depend on the processing

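Under each of the 17 alternatives 0 redox genes and 0 other genes passed, also with single libraries left out (0 to 0). With single libraries left out, the redox median log2 fold change ranged from -0.381 to 0.398 in KO against WT, from -0.238 to 0.377 in KO+DNMT3A against KO and from -0.285 to 0.356 in KO+DNMT3A against WT. Of the alternative values of 31 single-gene results, 515 kept their direction and 12 turned. Many of the 515 could not turn, so the count does not measure robustness. Changes of the filter, the variance trend, the groups in the fit or the block leave a fold change as it was. So does leaving out a library of the group not compared. Most of the 31 were also chosen because their groups did not overlap, and leaving out a single library cannot turn these. Srxn1 in KO+DNMT3A against KO was -0.0301 after quantile normalization. Without both insulin-poor libraries, which leaves 1 KO and 1 WT library assumed to vary like KO+DNMT3A, Gpx4 was -0.0051 and Prdx1 0.697 in KO against WT and Prdx1 0.14 in KO+DNMT3A against WT, and in KO+DNMT3A against KO Txnip was -0.144 and Gpx4 -0.384. With single libraries left out, KO+DNMT3A against KO ranged from -0.285 to 1.94 for Txnip, from -0.384 to 1.27 for Gpx4 and from -1.43 to 0.509 for Prdx1. Prdx1 ranged from -1.18 to 0.603 in KO against WT and from -1.72 to 0.222 in KO+DNMT3A against WT. The cause was not tested. Same-numbered replicates deviated from their group means with correlations of -0.269 (KO and WT), 0.318 (KO+DNMT3A and KO) and 0.101 (KO+DNMT3A and WT). These correlations rest on 2 libraries per group and cannot decide whether replicates are paired. With the replicate block 0 genes passed in each comparison, and 0 with the numbers of KO crossed, an alternative chosen after seeing the data. Neither block followed the numbers in the deposited column names. There WT replicate 1, KO replicate 2 and KO+DNMT3A replicate 2 share a number, and both insulin-poor libraries are among them. What that number stands for is not stated, and a block on it was not tested. Depth limits low genes most in WT replicate 1, where 7 of the 51 redox genes were listed at 0.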
